A study of Rattus norvegicus with 12 samples.

Results

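Cultured rat cortical neurons that had received an active short hairpin RNA (shRNA), against either Stau2 or Pum2, were compared with neurons that had received a non-targeting shRNA, to find the microRNAs (miRNAs) that both active shRNAs moved the same way. The comparison took in all 12 small RNA libraries of the series: 4 labelled shStau2 and 4 labelled shPum2, pooled as 8, and 4 labelled shNTC as the reference. All 12 cultures were primary neurons from Sprague Dawley cortices of embryonic day 17, transduced with lentivirus on day 10 in vitro and lysed on day 14. Every group therefore carried a lentiviral shRNA, and no culture without virus was analysed here. The series used shPum2 as a second control, for background that comes with an shRNA of any target. Each library carries a number from 1 to 4. The test removed differences between numbers, and each active library was also set against the shNTC library of its own number, which gave 8 pairs in which each shNTC library served for both shRNAs.

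A miRNA is cut from a hairpin transcript by Drosha and then Dicer, and a strand of the resulting duplex is loaded into an Argonaute protein, which it guides to mRNAs that match its seed. The strands from the left and right side of the hairpin carry the suffixes 5p and 3p. An expressed shRNA passes through the same Dicer and Argonaute steps. Staufen2, the product of Stau2, recognises double-stranded RNA and takes part in dendritic mRNA transport, and Pumilio 2 represses mRNAs that hold its short recognition motif. Only 1 hairpin per target is named in the labels, with no statement of the promoter that drives it. Small RNA tables hold no mRNA, so the knockdown of either target could not be checked from them.

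The 10 miRNAs with the smallest p in the pooled comparison, among those with a mean of at least 10 CPM (the count scaled to a common library total), are the ones the results turn on. Mature sequences are from RefSeq on assembly GRCr8, 5′ to 3′, and capitals mark the seed (bases 2 to 8). The first pair shows the miRNA that passed the test beside its closest relative, which has the same seed UCACAUU and differs by the substitution U19A, counted from the 5′ end with the base of miR-23a-3p first.
miR-23a-3p: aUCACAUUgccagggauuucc
miR-23b-3p: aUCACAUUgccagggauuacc
The next group shows the miR-29 strands, which share the seed AGCACCA, and miR-3587, whose sequence is complementary to miR-29b-3p over 21 bases. Between miR-29a-3p and miR-29c-3p the sole difference is C10U.
miR-29a-3p: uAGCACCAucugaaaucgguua
miR-29b-3p: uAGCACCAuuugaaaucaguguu
miR-29c-3p: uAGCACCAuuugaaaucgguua
miR-3587: aACACUGAuuucaaauggugc
The other leading miRNAs have no seed in common. They are shown because their GC content, the share of G and C bases, runs from 23.8% in miR-369-3p to 65.2% in miR-298-5p, a property taken up further on.
miR-21-5p: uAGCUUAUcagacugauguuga
miR-382-3p: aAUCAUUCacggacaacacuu
miR-369-3p: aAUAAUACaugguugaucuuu
miR-126a-5p: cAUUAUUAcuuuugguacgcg
miR-1b: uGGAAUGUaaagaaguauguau
miR-100-5p: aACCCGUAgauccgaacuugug
miR-298-5p: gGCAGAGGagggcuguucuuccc

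Library totals ran from 3836349 to 5415763 counts, and 653 to 662 miRNA names had at least 1 count in a library. Levels are CPM after scaling by the trimmed mean of M-values (TMM), on which a floor of 3 counts equals 0.588 to 0.763 CPM. They are shares of a library and not amounts per cell, and intervals or floors of this kind cover counting error only. The neuronal markers miR-128-3p (79151 to 102047 CPM) and miR-124-3p (4062 to 5647 CPM) were abundant in every library. Defining markers of other cell types were lower, and none was at 0: miR-219a-5p of oligodendrocytes lay between 15.1 and 35.7 CPM, miR-223-3p of myeloid cells between 4.32 and 10.7 CPM, and miR-126a-3p of endothelium between 339 and 446 CPM. The highest of them was miR-204-5p of choroid plexus, at 1238 to 2386 CPM, and miR-143-3p of vessels ranged widely, from 34.3 to 294 CPM. The liver marker miR-122-5p lay between 19.6 and 29.99 CPM and was likewise at 0 in no library. The range of miR-219a-5p overlapped that of miR-122-5p, and the range of miR-223-3p lay below it. Levels this low therefore do not show that oligodendrocytes or myeloid cells were present.

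In the pooled comparison 1 of 628 miRNAs tested passed at an adjusted p of 0.05 (0.159% of those tested), and it was lower with the active shRNAs. This was miR-23a-3p, which shares a primary transcript with miR-27a and miR-24 and is known from astrocytes more than from neurons. By edgeR's quasi-likelihood test with Benjamini-Hochberg adjustment, the next smallest adjusted p was 0.118. No miRNA passed in the higher direction in this test or in DESeq2, which called 3 lower. In this test 4 passed without shPum2 replicate 1 and 0 without shNTC replicate 2. A fit that kept the 3 groups apart and took the mean of both shRNAs called 6, all lower (0.955%): miR-23a-3p, miR-21-5p, miR-27a-5p, miR-29a-3p, miR-29a-5p and miR-3587. At an unadjusted p under 0.05 there were 63 miRNAs, or 10.0% (31.4 would be expected by chance), 29 higher (4.62%) and 34 lower (5.41%). Their median absolute log2 fold change was 0.31, and 9 of them exceeded 0.5.

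The level of miR-23a-3p in libraries 1 to 4 was 2237, 1901, 1798 and 1383 CPM in shNTC. It was 1561, 1375, 1289 and 979 CPM in shStau2, and 1759, 1357, 1511 and 1034 CPM in shPum2. In each group number 1 was highest and number 4 lowest, so the groups overlapped and 5 of the 8 active libraries lay below the lowest shNTC library, while within numbers the active library was lower in 8 of 8 pairs. The mean was 1830 ± 352 CPM in shNTC (SD, n = 4) and 1358 ± 262 CPM in the active libraries (SD, n = 8), and the log2 fold change was -0.43 (SE 0.06, edgeR adjusted p = 0.00322). Same-numbered differences were -0.52, -0.47, -0.48 and -0.50 for shStau2 and -0.35, -0.49, -0.25 and -0.42 for shPum2, on the log2 scale. These 8 values lie close together, as the plot of same-numbered differences shows.

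**Figure D1:**
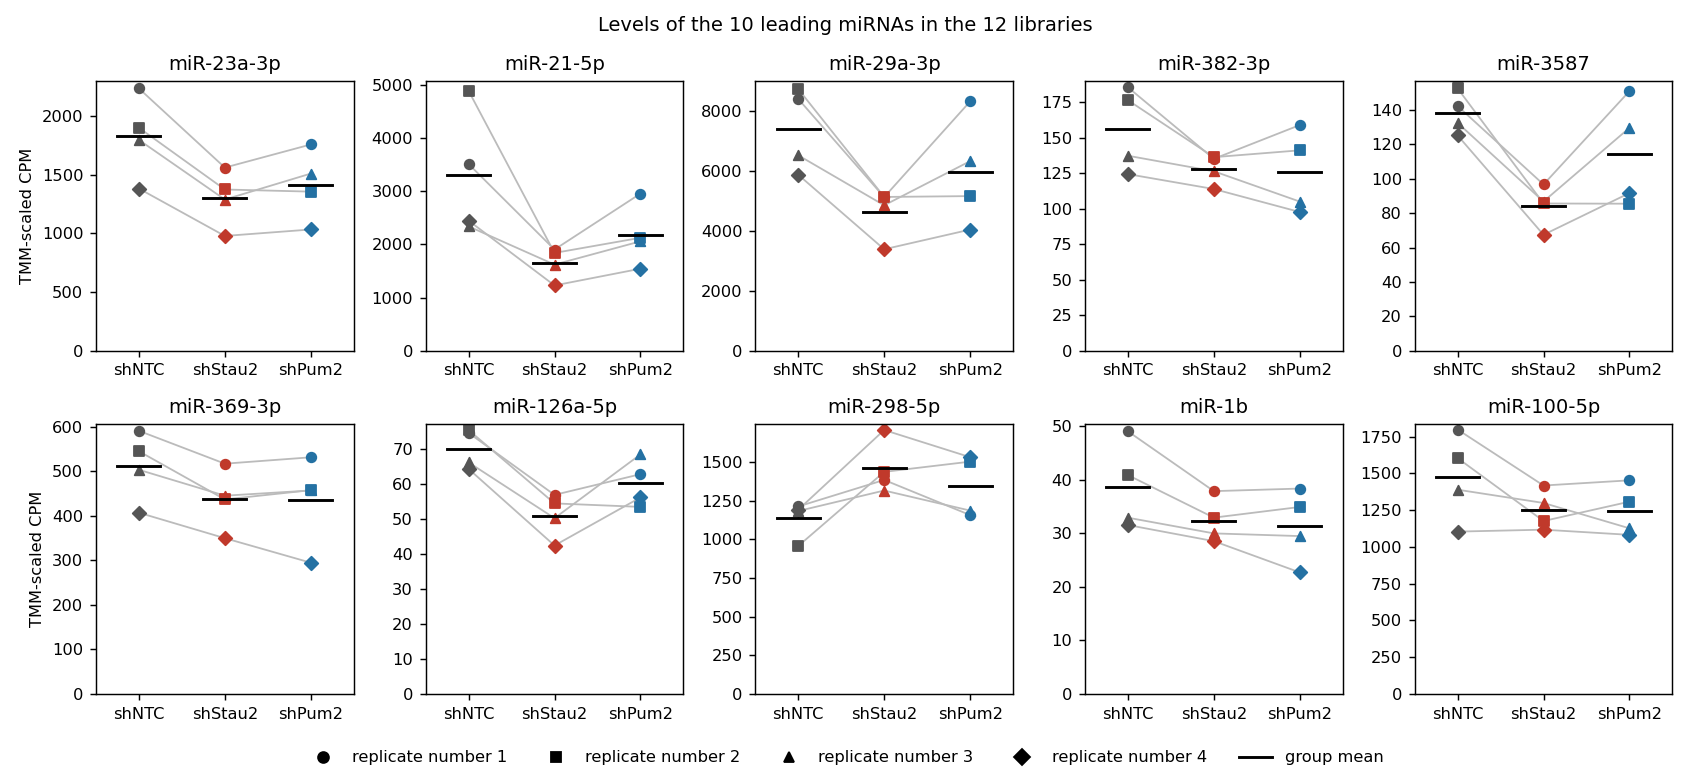
TMM-scaled CPM (linear axis from 0) of the 10 leading miRNAs in the 12 libraries by group; symbols mark replicate numbers, grey lines join libraries of the same number and black bars are group means. For miR-23a-3p every line falls from shNTC to both active groups, whereas the level of the lines differs by number, from 2237 CPM in shNTC 1 to 1383 CPM in shNTC 4.

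The decrease of miR-23a-3p rested on the comparison within numbers. Without the replicate block the log2 fold change was again -0.43, but the SE was 0.15 and the adjusted p 0.865. It did not pass without shNTC replicate 2 (adjusted p = 0.0758), without replicate number 1 (0.0589) or without number 2 (0.127). Nor did it pass in limma-voom with the number as a random term (-0.44, adjusted p = 0.263; on the rule for both, described next, adjusted p = 1). Over 26 alternatives of block, scaling, filter, tool and libraries, its log2 fold change lay between -0.46 and -0.41, and it passed in 21.

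Pooling can let a large difference of a single shRNA pass for both, so each shRNA was also tested by itself, and a miRNA counted as moved by both when its larger p passed and the directions matched. Again 1 of 628 passed (0.159%), and again it was miR-23a-3p (edgeR adjusted p of the larger p 0.0179). It fell by 0.49 in shStau2 (SE 0.07, adjusted p = 0.000178) and by 0.37 in shPum2 (SE 0.07, adjusted p = 0.0179), and the 2 shRNAs differed by -0.12, which did not pass (adjusted p = 0.357). These comparisons share the 4 shNTC libraries. The call on both passed in 12 of the 26 alternatives. It was lost in each of the 4 fits without a replicate number (adjusted p from 0.121 to 0.277) and in 8 of the 12 without a single library: shNTC replicate 1 (0.0683), 2 (0.115) or 4 (0.0515), shStau2 replicate 1 (0.0615) or 3 (0.0723), and shPum2 replicate 1 (0.0959), 2 (0.165) or 4 (0.15). Without shNTC replicate 3 the count was 2, since miR-21-5p joined it (adjusted p = 0.0199).

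Differences in the pooled comparison were mostly larger in shStau2. Of the 63 miRNAs at an unadjusted p under 0.05 in the pooled comparison, 51 had the larger absolute difference in shStau2. By the tests of each shRNA, 20 were at an unadjusted p under 0.05 in both, 38 in shStau2 alone, 3 in shPum2 alone and 2 in neither, and for 16 the difference between the shRNAs had an unadjusted p under 0.05. Over all miRNAs tested, 22.5% were at that level in shStau2, 7.32% in shPum2 and 19.7% between the shRNAs. The 20 in both make 3.18% of those tested, with 5 higher (0.796%) and 15 lower (2.39%). At the adjusted threshold shStau2 had 39 calls against shNTC (6.21%), shPum2 had 1 (0.159%) and shStau2 against shPum2 had 25 (3.98%). The count of 39 fell to 12, 20, 14 and 13 without shStau2 replicate 1, 2, 3 and 4, and to 14 and 15 without shNTC replicate 2 and 4. The 1 of shPum2 became 0 on leaving out any of shNTC 1, shNTC 2, shNTC 4, shStau2 1, shStau2 3, shPum2 1 and shPum2 4, and 2 on leaving out shNTC 3. On leaving out shPum2 2 the count was again 1, but that call was higher in shPum2, and miR-23a-3p did not pass (adjusted p = 0.0614). That of 25 fell to 6, 10, 6 and 6 without shStau2 replicate 1, 2, 3 and 4 and to 12 and 8 without shPum2 replicate 1 and 3, and rose to 39 without shNTC replicate 2 and 68 without shPum2 replicate 2.

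**Figure D2:**
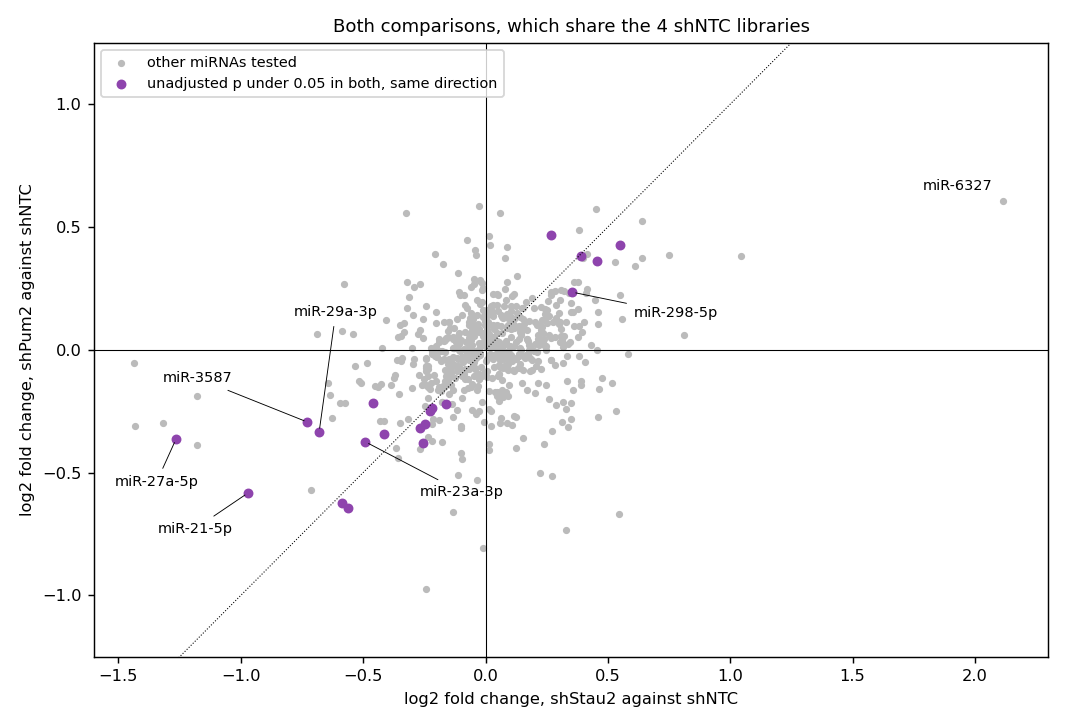
Log2 fold change of 628 miRNAs in shStau2 against shNTC (x axis) and in shPum2 against shNTC (y axis); both axes use the same 4 shNTC libraries, and the dotted line marks equal values. Purple points are the 20 miRNAs at an unadjusted p under 0.05 in both and in the same direction, 15 of them lower; miR-23a-3p lies close to the line, and miR-21-5p and miR-27a-5p lie on the side of shStau2.

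The strands that share a transcript with miR-23a-3p did not follow it evenly. In RefSeq's gene order Mir23a, Mir27a and Mir24-2 are neighbours with no gene between them. The pooled log2 fold change was -0.31 for miR-27a-3p (SE 0.13, adjusted p = 0.428), -0.75 for miR-27a-5p (SE 0.26, adjusted p = 0.394) and -0.10 for miR-24-3p (adjusted p = 0.634), none past the threshold in the pooled fit. The name miR-24-3p covers both the miR-23a/27a/24 and the miR-23b/27b/24 transcripts, so its value cannot be assigned to either. The strand miR-24-2-5p stood at 0.12 in edgeR's pooled fit (adjusted p = 0.916) and was scarce, with a mean of 2.55 CPM. In the fit that kept the 3 groups apart, miR-27a-5p passed (-0.81, adjusted p = 0.00411). In shStau2 alone miR-27a-3p fell by 0.51 (adjusted p = 0.0146) and miR-27a-5p by 1.27 (adjusted p = 0.000178), against -0.14 and -0.36 in shPum2, where neither passed. For miR-27a-3p the 4 shNTC libraries lay between 521 and 533 CPM, the shStau2 libraries between 303 and 428 CPM, and the shPum2 libraries at 581, 356, 588 and 424 CPM. The shPum2 libraries 1 and 3 were thus above shNTC and 2 and 4 below. The other strand of the same hairpin, miR-23a-5p, went the opposite way in shStau2, where it rose by 0.43 (adjusted p = 0.0186), and stood at 0.02 in shPum2 (adjusted p = 0.968). The difference between the shRNAs passed at 0.41 (adjusted p = 0.0321), and pooled it was 0.24 (adjusted p = 0.593).

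**Figure D3:**
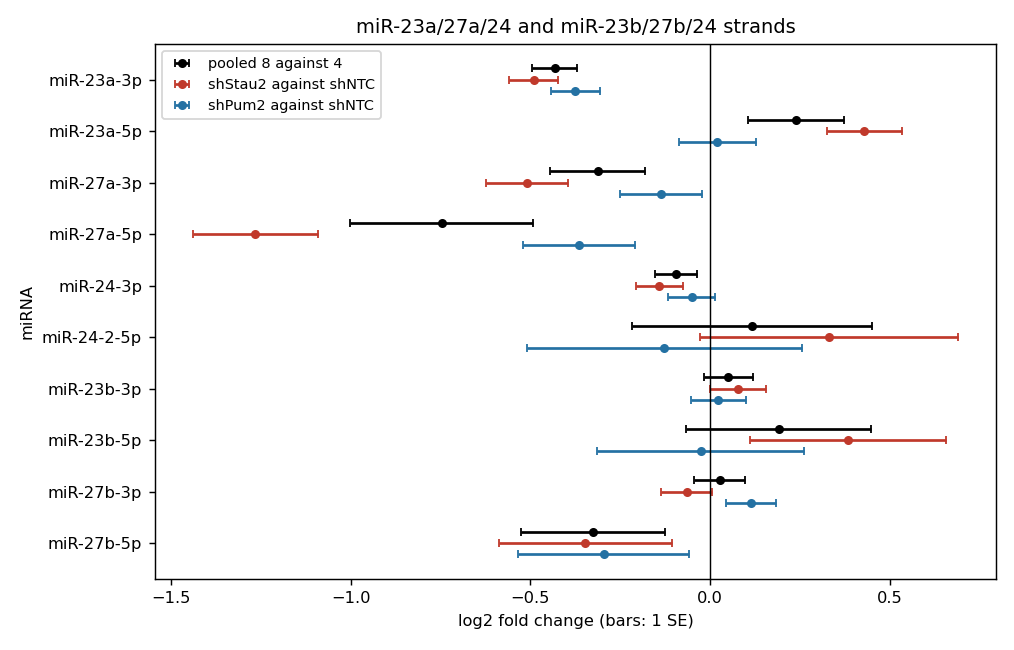
Log2 fold change (points, with bars of 1 SE) of the strands of the miR-23a/27a/24 and miR-23b/27b/24 transcripts, pooled and for each shRNA against shNTC. All 3 values of miR-23a-3p lie left of 0, those of miR-23b-3p lie at or just right of it, and miR-23a-5p is separated by shRNA (0.43 in shStau2, 0.02 in shPum2).

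The relative miR-23b-3p, which comes from another locus and carries the same seed, had a pooled log2 fold change of 0.05 (SE 0.07, adjusted p = 0.852). Its levels were 828.8 to 987 CPM in shNTC, 943 to 994 CPM in shStau2 and 874 to 1007 CPM in shPum2, which overlap throughout. The ratio of miR-23a-3p to miR-23b-3p within a library was 1.49 to 2.29 in shNTC, 1.02 to 1.57 in shStau2 and 1.11 to 2.01 in shPum2, and lower than in the same-numbered shNTC library in 8 of 8 pairs. A single base near the 3′ end separates these sequences, so reads could have been exchanged between them in the authors' assignment. The separate levels are uncertain to that extent. The same holds for miR-27a-3p (mean 462 CPM) and the more abundant miR-27b-3p (mean 1470 CPM), which differ by C19U.

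Second in rank was miR-21-5p, a miRNA of reactive astrocytes and of many dividing cells. Libraries 1 to 4 had 3514, 4891, 2340 and 2448 CPM in shNTC, 1904, 1840, 1620 and 1228 CPM in shStau2, and 2956, 2125, 2058 and 1543 CPM in shPum2. All shStau2 libraries lay below all shNTC libraries, and shPum2 library 1 was the single active library inside the shNTC range. The pooled log2 fold change was -0.77 (SE 0.15, adjusted p = 0.118, lower in 8 of 8 pairs). In shStau2 it fell by 0.97 (adjusted p = 0.00441), in shPum2 the value was -0.58 (adjusted p = 0.388), and the difference between them did not pass (-0.39, adjusted p = 0.176). The largest same-numbered differences were those of number 2, where shNTC had its highest level. The call on the pooled value depended on the fit: it passed in DESeq2 (adjusted p = 7.22e-05), with non-robust estimation (0.0305), with a filter at a mean of 10 CPM (0.0448) and without shPum2 replicate 1 (0.0327). Its other strand, miR-21-3p, stood at -0.73 (adjusted p = 0.377) and was scarce, between 1.68 and 9.52 CPM.

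Both miR-23a-3p and miR-21-5p belong to a list of astrocyte miRNAs with 8 strands tested (those of miR-21, miR-23a, miR-24 and miR-27a). Of these 1 passed in the pooled comparison, 5 were lower at an unadjusted p under 0.05, and 6 of 8 had values below 0. Over all miRNAs 0.159% passed and 5.41% were lower at that level. The median log2 fold change of the list was -0.37, against 0.01 over all 628 miRNAs. The summed level ran from 6900 to 9701 CPM in shNTC, 4789 to 6272 CPM in shStau2 and 5609 to 7696 CPM in shPum2. In bulk cultures, fewer cells of a type and less of its RNA per cell cannot be told apart. The markers used here included no defining marker of astrocytes, and the part of glial content in the decrease of miR-23a-3p was not tested. The list was chosen with earlier results of these data known.

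The third was miR-29a-3p, the most abundant strand of a family that increases as neurons mature and represses pro-apoptotic mRNAs. Its levels were 8410, 8740, 6527 and 5878 CPM in shNTC, 5131, 5135, 4857 and 3388 CPM in shStau2, and 8326, 5164, 6332 and 4045 CPM in shPum2. All shStau2 libraries were below all shNTC libraries, and in shPum2 libraries 2 and 4 were below them while 1 and 3 were close to their shNTC partners. The pooled log2 fold change was -0.50 (SE 0.13, adjusted p = 0.331), lower in 8 of 8 pairs, with -0.68 in shStau2 (adjusted p = 0.00374) and -0.33 in shPum2 (adjusted p = 0.417). By number the shPum2 differences were -0.01, -0.76, -0.04 and -0.54 on the log2 scale. Without shPum2 replicate 1 the pooled decrease passed (adjusted p = 0.00642), as it did in DESeq2 (0.0372).

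All 6 miR-29 strands tested had pooled values below 0, with a median of -0.36 against 0.01 over all miRNAs. In edgeR's pooled fit 0 of 6 passed, while miR-29a-3p (adjusted p = 0.0146) and miR-29a-5p (0.00411) passed in the fit that kept the 3 groups apart. Lower at an unadjusted p under 0.05 in the pooled fit were 3 of 6, against 5.41% of all miRNAs: miR-29a-3p, miR-29a-5p at -0.72 and miR-29b-5p at -0.23. The strand miR-29a-5p fell by 1.32 in shStau2 (adjusted p = 0.000178) and stood at -0.30 in shPum2 (adjusted p = 0.659), and these differed (-1.02, adjusted p = 0.00334), so its pooled value mixes unequal responses. For miR-29b-3p the pooled value was -0.61 with an SE of 0.34 (adjusted p = 0.619), made up of -1.18 in shStau2 and -0.19 in shPum2, which differed too (adjusted p = 0.0292). The ratio of miR-29a-3p to miR-29c-3p was lower in 8 of 8 pairs, at 5.35 to 7.71 in shNTC, 3.94 to 5.08 in shStau2 and 4.17 to 6.01 in shPum2. These differ at a single base, so the caution on exchanged reads holds here as well.

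The annotation places Mir3587 between Mir29a and Mir29b1. Its product miR-3587 had 142, 153, 132 and 125 CPM in shNTC, 96.6, 85.6, 86.7 and 67.4 CPM in shStau2, and 151, 85.5, 130 and 91.7 CPM in shPum2. As for miR-29a-3p, shPum2 libraries 1 and 3 lay within the shNTC range and the 6 other active libraries below it. The pooled log2 fold change was -0.50 (SE 0.14, adjusted p = 0.331), and without shPum2 replicate 1 it passed (-0.59, adjusted p = 0.0469). Since miR-3587 is the reverse complement of miR-29b-3p over 21 bases and no source used here states whether counting kept strands apart, reads of the 2 cannot be told apart with certainty. The ratio of miR-3587 to miR-29b-3p was 0.0867 to 0.1 in shNTC, 0.121 to 0.134 in shStau2 and 0.0715 to 0.104 in shPum2.

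Among miRNAs of the imprinted Dlk1-Dio3 cluster, a large neuronal group, miR-382-3p and miR-369-3p ranked among the 10. For miR-382-3p the range was 124 to 186 CPM in shNTC, 114 to 136 CPM in shStau2 and 97.7 to 159 CPM in shPum2, with a pooled value of -0.29 (SE 0.08, adjusted p = 0.331). For miR-369-3p it was 407 to 591 CPM, 350 to 517 CPM and 295 to 531 CPM, with -0.24 (SE 0.07, adjusted p = 0.331). The ranges overlap for both. Both were lower in 8 of 8 pairs, in the same libraries whose blocked fit ranked them, so the pairs are not separate support. Their values were of like size in the 2 shRNAs, -0.27 and -0.32 for miR-382-3p and -0.23 and -0.25 for miR-369-3p. The value of miR-369-3p shrank with the GC offset described further on. Their other strands stood at 0.06 (miR-382-5p) and -0.05 (miR-369-5p). In the cluster as a whole 0 of 89 strands passed in edgeR's pooled fit. In shStau2 5 of the 89 passed as lower and 0 as higher. Of all 628 miRNAs 24 passed there as lower and 15 as higher, together 6.21%. At an unadjusted p under 0.05 in the pooled fit 5 of 89 were lower, a share near the 5.41% of all miRNAs, and 1 was higher, below the 4.62% of all. The median was -0.04.

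Of the remaining leading miRNAs, miR-126a-5p comes from an intron of the endothelial gene Egfl7. It lay between 64.4 and 75.5 CPM in shNTC, 42.5 and 56.9 CPM in shStau2 and 53.5 and 68.5 CPM in shPum2, so 7 of 8 active libraries were below shNTC (pooled -0.33, SE 0.10, adjusted p = 0.331). Its other strand miR-126a-3p, the usual endothelial marker, stood at -0.16 (adjusted p = 0.5). The muscle-type miR-1b lay at 31.6 to 49.1 CPM in shNTC, 28.5 to 37.9 CPM in shStau2 and 22.7 to 38.4 CPM in shPum2. Its mean of 34.1 CPM was near the median of 37.8 CPM over all miRNAs tested. The strand was lower in 8 of 8 pairs (edgeR pooled -0.27, SE 0.08, adjusted p = 0.331). It differs from miR-1-3p by A17G.

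The mTOR-linked miR-100-5p had 1798, 1604, 1389 and 1104 CPM in shNTC, 1417, 1175, 1298 and 1117 CPM in shStau2, and 1452, 1307, 1126 and 1082 CPM in shPum2. Levels followed the replicate number more than the group, and number 4 was level across groups (pooled -0.23, SE 0.07, adjusted p = 0.331, lower in 7 of 8 pairs). Its relative miR-99a-5p stood at -0.19 (adjusted p = 0.377), also lower in 7 of 8 pairs, while miR-99b-5p stood at 0.12 (adjusted p = 0.655). The ratio of miR-100-5p to miR-99b-5p was lower in 8 of 8 pairs.

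A single one of the 10 pointed upward. This was miR-298-5p, from the imprinted Gnas locus, where Mir298 and Mir296 are adjacent. It had 1213, 957, 1184 and 1192 CPM in shNTC, 1385, 1438, 1317 and 1708 CPM in shStau2, and 1158, 1504, 1187 and 1533 CPM in shPum2. All shStau2 libraries and shPum2 libraries 2 and 4 lay above all shNTC libraries, and shPum2 libraries 1 and 3 lay among them. The pooled value was 0.30 (SE 0.09, adjusted p = 0.331), with 0.35 in shStau2 (adjusted p = 0.0379) and 0.23 in shPum2 (adjusted p = 0.568). Of the 4 Gnas-locus strands, 3 were higher at an unadjusted p under 0.05 (miR-298-5p, miR-296-3p at 0.32 and miR-296-5p at 0.24), against 4.62% of all miRNAs. In edgeR's pooled fit 0 of the 4 passed, and the pooled median was 0.27. In shStau2 3 of the 4 passed as higher, where 15 of all 628 miRNAs did. Both miR-296 strands had shPum2 libraries 2 and 4 above and 1 and 3 at or near shNTC: miR-296-3p was at 244, 327, 244 and 377 CPM in shPum2 against 238 to 283 CPM in shNTC.

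**Figure D4:**
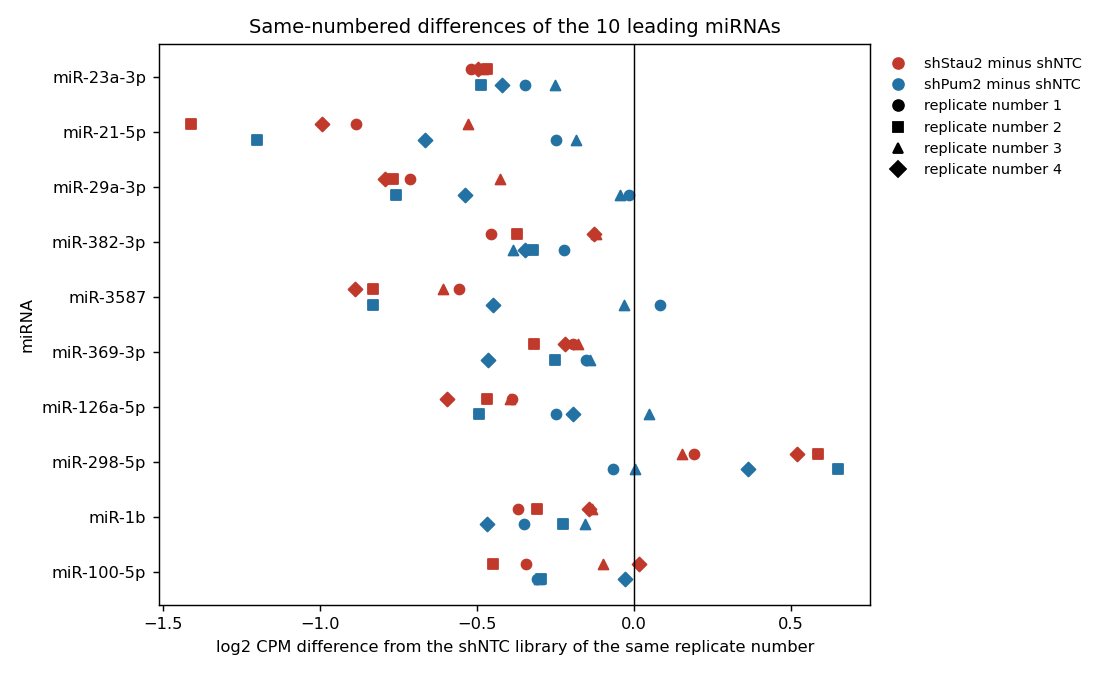
Log2 CPM difference of each active library from the shNTC library of its number for the 10 leading miRNAs; color gives the shRNA and symbol the replicate number. The 8 differences of miR-23a-3p lie between -0.52 and -0.25, whereas for miR-29a-3p, miR-3587 and miR-298-5p the shPum2 libraries 1 and 3 lie near 0 and 2 and 4 do not.

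The miRNAs lower with the active shRNAs had a lower median GC content than those higher with them. A mature sequence was found for 563 of the 628 miRNAs (89.6%), and their median GC content was 47.8%. At an unadjusted p under 0.05 the median was 42.7% for the lower set (30 of 34 with a sequence) and 54.5% for the higher set (28 of 29). Among the 187 GC-richest miRNAs (54.2% and above) 18 were higher and 3 lower at that level. Among the 235 GC-poorest (45.5% and below) 6 were higher and 17 lower. Median length was 22 bases in both sets.

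This balance moved by library. The median deviation of these GC-rich miRNAs minus that of the GC-poor ones was -0.01, -0.07, -0.13 and -0.13 in shNTC libraries 1 to 4, 0.04, 0.18, -0.04 and 0.17 in shStau2, and -0.09, 0.16, -0.24 and 0.15 in shPum2, on the log2 scale. The active libraries of numbers 2 and 4 were thus the GC-rich ones for both shRNAs, and shPum2 libraries 1 and 3 lay below their shNTC partners. With an offset per library that removes the trend with GC, chosen after seeing the data, miR-23a-3p was little changed (-0.42, adjusted p = 0.00483; on the rule for both, 0.0208), and miR-21-5p passed as well (-0.67, adjusted p = 0.0409). Of the 10 leading miRNAs the AU-rich miR-369-3p and miR-1b shrank most, to -0.06 and -0.12, and miR-298-5p stood at 0.21. At an unadjusted p under 0.05 there were then 57, with 31 higher and 26 lower. The source of the GC trend was not tested.

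**Figure D5:**
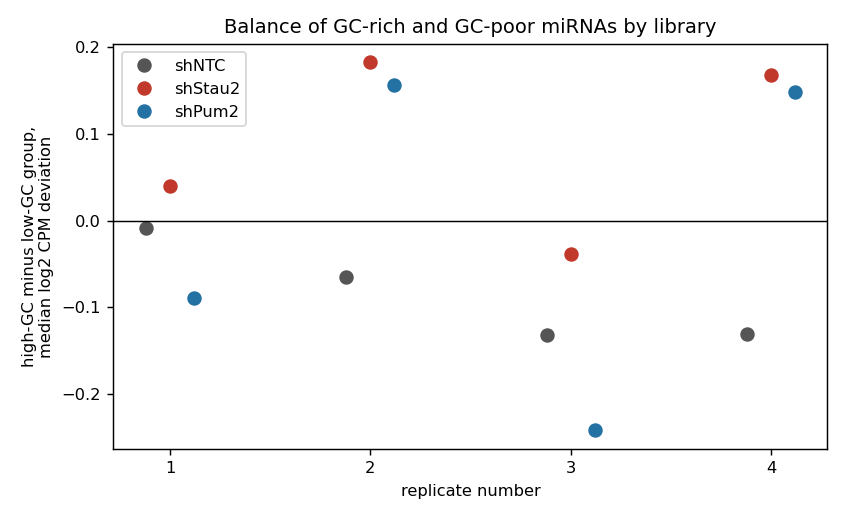
Median log2 CPM deviation of GC-rich miRNAs minus that of GC-poor miRNAs (y axis) in each library, by replicate number (x axis) and group (color). Both active libraries of numbers 2 and 4 lie between 0.15 and 0.18, above the shNTC libraries (-0.13 to -0.01), and shPum2 3 is lowest at -0.24.

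Directions were also counted over the 8 pairs, which share the shNTC libraries. Lower in 8 of 8 pairs were 13 miRNAs (2.07% of those tested) and higher in 8 of 8 were 9 (1.43%), together 22 (3.50%). The 13 held 5 of the leading 10 besides miR-23a-3p, namely miR-21-5p, miR-29a-3p, miR-382-3p, miR-369-3p and miR-1b. The leading 10 were ranked by a fit with the number as block on the same libraries, so this overlap is not separate support. With no regard to number, the 8 active libraries lay all below the 4 shNTC libraries for 2 miRNAs (0.318%) and all above for 1 (0.159%), and none of the 3 (0.478%) passed the test. They were chosen after their values were seen. For miR-598-3p, a neuronal miRNA, shNTC held a narrow range of 945 to 957 CPM, shStau2 lay between 817 and 936 CPM and shPum2 between 737 and 920 CPM (pooled -0.15, adjusted p = 0.428). The other 2 were scarce: miR-20b-3p had 3.25 to 4.07 CPM in shNTC and 1.36 to 3.03 CPM in the active libraries (-0.64, adjusted p = 0.377), and miR-3559-3p had 3.82 to 4.73 CPM and 4.87 to 6.69 CPM (0.40, adjusted p = 0.428).

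The balance of the 2 strands of a hairpin was compared for 208 hairpins, as the log2 ratio of 5p to 3p. None passed by limma with Benjamini-Hochberg adjustment (0% called, smallest adjusted p = 0.288), and 21 of the 208 had an unadjusted p under 0.05. The 5 with the smallest p were miR-653 (-0.54), miR-652 (0.41), miR-23a (0.66), miR-340 (-0.36) and miR-382 (0.35). The strand miR-653-5p was scarce, with 13.8 CPM in shNTC 2 and at most 6.9 CPM in the other shNTC libraries. For miR-653, miR-652, miR-340 and miR-382 the 2 shRNAs gave values of like size, for example -0.57 and -0.50 for miR-653. For miR-23a the ratio stood at 0.92 in shStau2 and 0.39 in shPum2, through a lower 3p strand in both and a higher 5p strand in shStau2.

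None of the 3 most abundant neuron-enriched strands passed. The pooled value was 0.01 for miR-9a-5p (SE 0.05, adjusted p = 0.937), 0.06 for miR-128-3p (SE 0.06, adjusted p = 0.773) and -0.06 for miR-9a-3p (SE 0.05, adjusted p = 0.713), with overlapping levels in all groups. All 3 values change sign in other fits. Of 32 neuron-enriched strands 0 passed in edgeR's pooled fit, 1 was lower (miR-488-5p, -0.38) and 1 higher (miR-7a-2-3p, 0.26) at an unadjusted p under 0.05, below the 5.41% and 4.62% of all miRNAs. Their summed level was 340733 to 391997 CPM in shNTC, 354061 to 401940 CPM in shStau2 and 345135 to 407251 CPM in shPum2.

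Outside the lists already named, 0 list members passed in edgeR's pooled test. The counts that follow are at an unadjusted p under 0.05, where 4.62% of all miRNAs were higher and 5.41% lower. A count of 1 in these short lists is not a result about the list. The miR-125 family had 2 of 5 strands higher at an unadjusted p under 0.05 (median 0.14), miR-125a-5p at 0.19 and miR-125a-3p at 0.21, and the miR-99 and miR-100 family 2 of 6 lower (median -0.11). Strands made without Drosha or Dicer, such as those of miR-320 and miR-484, were above 0 in 10 of 10 cases. Among them miR-344a-3p was barely so, at 0.0018. Their median was 0.14, against 0.01 over all miRNAs, and 1 of them, miR-702-3p, was at an unadjusted p under 0.05. The share of all miRNAs above 0 was not counted, and whether these strands differ from the rest was not tested. Markers of vessels or mesenchyme had 2 of 14 lower (median -0.03), those of choroid or ciliated cells 1 lower and 1 higher of 14 (median 0.01), and inflammation-linked strands 2 of 11 lower, both of miR-21 (median -0.10). The let-7 (1 higher of 20), miR-15/16 (1 higher of 13), miR-26 (1 lower of 4), miR-148 and miR-152 (1 lower of 6) and miR-34 (1 lower of 8) families, the miR-17 cluster (1 lower and 1 higher of 24), the Clcn5-intron cluster (1 and 1 of 9) and the activity or dendrite list (1 and 1 of 21) had few at that level. In 9 lists 0 strands were at an unadjusted p under 0.05: miR-221 and miR-222, miR-30, miR-181, the miR-183 cluster, miR-200, miR-344, and markers of oligodendrocytes, microglia or blood, and muscle.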

How the data were processed

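Values are whole-number counts per small RNA name, 1 table per library, deposited by the authors without normalization. Per the labels' protocols, the library kit includes unique molecular identifiers. The submitters' processing notes name Rnor 6.0. Aligner, counter, and whether molecules or reads were counted are not given in the sources used here. There were 805 names, 685 of miRNAs (7 combine several miRNAs) and 120 of Piwi-interacting RNAs (piRNAs, 0.684 to 0.989% of counts). The 685 were tested after edgeR's filterByExpr by group removed 57.

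The pooled fit (edgeR 4.0.16 in R 4.3.3; TMM, robust quasi-likelihood, two-sided, Benjamini-Hochberg over 628 names) had replicate number as block and a 2-level factor, with 7 residual degrees of freedom. The fit for each shRNA had 3 groups and 6 residual degrees of freedom. For miRNAs moved by both, the larger p was taken where signs matched and adjusted over all 628. SEs were computed from the F statistic. Strand ratios used limma 3.58.1 on log2 ratios of CPM with a pseudocount of 0.5. DESeq2 1.42.0 with the block was an alternative, beside limma-voom, other scalings and filters, and leaving out libraries or numbers. The scripts were tested on simulated data.

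Replicate numbers were checked for pairing by the correlation across miRNAs of deviations from group means: r was 0.36 to 0.57 for 12 same-number pairs and -0.41 to 0.14 for 36 others, and 12 of 12 libraries correlated best with their own number. All same-number pairs exceeded the limit of 0.1. The labels call the numbers biological replicates without stating what a number shares. With the block, p-values measure the spread left between these cultures once differences between numbers are removed. In the pooled fit this spread also holds any difference between the active shRNAs. The fit that kept the groups apart removes that difference.

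The named miRNAs were, by rule, the 10 with the smallest pooled p and a mean of at least 10 CPM (fewer than 5 passed), their other strands, the 5 leading strand-ratio hairpins and the 3 most abundant neuron-enriched strands. Relatives by sequence, neighbours and list members at an unadjusted p under 0.05 were named after their values were seen. The comparison, members and 29 lists were chosen with earlier results of these data known. RefSeq sequences (GRCr8) were matched by name, and 26 of 27 miRNAs named by rule had an entry.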

Additional observations from a re-analysis of the deposited data

Results flagged for a closer look

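Over 108 groups of libraries of the named miRNAs, the gap between the most extreme library and its neighbour was compared with the range of the group, and a large share marks a library that stands apart. Chance alone marks about 1 in 20 such groups. This happened in 5 of the 108, a share close to that of chance. The groups were not independent, since the 8 active libraries were also tested as a group. For miR-29a-3p, shStau2 4 was lowest with 3388 CPM, the next being 4857 CPM (gap 0.84 of the range). For miR-298-5p, shNTC 2 was lowest with 957 CPM against 1184 CPM (0.885), and without that library the pooled log2 fold change was 0.20 in place of 0.30 (edgeR adjusted p = 0.85). For miR-126a-3p, shPum2 2 was lowest with 367 CPM against 401 CPM (0.949). For miR-9a-5p, shPum2 3 was highest with 221436 CPM against 183977 CPM (0.874). For miR-653-5p, shNTC 2 was highest with 13.8 CPM against 6.9 CPM (0.942).

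For 2 of the named miRNAs the responses to the active shRNAs differed from each other by edgeR's test of shStau2 against shPum2, so their pooled values describe neither shRNA well. The difference was 0.41 on the log2 scale for miR-23a-5p (adjusted p = 0.0321) and -1.02 for miR-29a-5p (adjusted p = 0.00334).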

How the results depend on the processing

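The pooled count of 1 became 0 with no replicate block and 0 with limma-voom, 3 with DESeq2, 2 with a mean of at least 10 CPM, 2 with non-robust estimation, 2 with the GC offset and 6, all lower, in a 3-group fit of the mean of both shRNAs (0.955% of those tested). Leaving out a library or number gave 0 to 4, with 0 without numbers 1 and 2 or shNTC replicate 2 and 4 without shPum2 replicate 1. The count for both shRNAs, 1, became 0 with no replicate block, 0 with limma-voom and 2 with DESeq2, and 0 to 2 on leaving out. The 39 calls of shStau2 became 2 with no replicate block and 21 with limma-voom, and 5 to 52 on leaving out, and with library totals their split of 15 higher and 24 lower became 7 and 32. The 1 of shPum2 became 0 with no replicate block, 0 with limma-voom and 2 with DESeq2, and 0 to 2 on leaving out. The 25 of shStau2 against shPum2 became 3 with no replicate block, 12 with limma-voom and 40 with upper-quartile factors (26 higher and 14 lower), and 6 to 68 on leaving out. List members called, 1, became 0 with no replicate block, 0 with limma-voom, 3 with DESeq2, 2 with a mean of at least 10 CPM, 2 with non-robust estimation and 5 in the 3-group fit, and 0 to 3 on leaving out. The strand-ratio count was 0 with no replicate block and in the 6 other fits run. Scaling to library totals moved the median by -0.0333 and the split at an unadjusted p under 0.05 from 29 higher and 34 lower to 19 and 42.

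Of 751 pooled values of the 27 miRNAs named by rule under alternatives, 719 kept direction and side of the threshold, 5 were weaker (all miR-23a-3p), 12 newly passed and 15 changed sign. All of the 15 have small values as reported: miR-9a-5p was -0.0251 with library totals and -0.0247 to 0.0645 on leaving out a library or number. On leaving out, miR-298-3p ran from -0.0176 to 0.0711 and miR-128-3p from -0.00581 to 0.1002. With the GC offset miR-9a-3p was 0.0616 and miR-652-3p -0.00677, and with library totals miR-652-3p was -0.00265. The cause of these changes was not tested. With 4 libraries a group and no stated meaning of the replicate number, the result for miR-23a-3p rests on the pairing seen in the data.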

Other observations

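Scarce miRNAs outside the 10 leading ones also leaned one way in both shRNAs without passing in edgeR. At an unadjusted p under 0.05 in both, miR-6318 was lower in 8 of 8 pairs (-0.60, 6.66 to 9.42 CPM in shNTC and 3.11 to 6.96 CPM in the active libraries, adjusted p = 0.331), and miR-193a-3p in 7 of 8 (-0.61, adjusted p = 0.377). Upward were miR-3473, higher in 8 of 8 pairs (0.37, adjusted p = 0.333), miR-652-5p in 8 of 8 (0.49, adjusted p = 0.355), miR-135a-3p in 7 of 8 (0.41, adjusted p = 0.377) and miR-3558-5p in 7 of 8 (0.38, adjusted p = 0.428). The miR-34 family member miR-34c-5p, a p53-linked miRNA also known from ciliated cells, was lower in 8 of 8 pairs (-0.32, adjusted p = 0.377). These were chosen after their values were seen.

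The point farthest to the right in the plot of both comparisons, miR-6327, rests on a single library: it was at 44.9 CPM in shStau2 1 and at most 5.71 CPM in the other 11, with 4 of the 12 libraries at 0. In a fit that also held the 90 piRNA names past the filter, 0 of them passed in edgeR, 8 had an unadjusted p under 0.05, and the smallest adjusted p was 0.0563.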
